A study of Mus musculus with 54 samples.

Results

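Mesenchymal cells with high surface PDGFRA from the mid part of the fetal mouse small intestine were compared with the same sort from the proximal and from the distal end. The libraries were chosen by their labels: 3 mid, 3 proximal and 3 distal PDGFRA-HIGH libraries, 9 of the 54 libraries of the series. All came from untreated C57Bl/6J embryos at embryonic day 16.5. The intestine was divided into 5 sections of equal length, and collagenase was used to dissociate the section at either end (proximal and distal) and the central one (mid). The gate took live cells with high PDGFRA and medium CD29 that lacked EpCAM, CD31 and CD45, surface markers of epithelial, endothelial and white blood cells. PDGFRA-MED libraries from the same 3 regions (9 libraries, medium PDGFRA and medium CD29) share strain, age and lack of treatment and served for comparison. The methods of the study treat a replicate number as a mother, so replicates came from separate litters. How many embryos went into a library is not given in the sources used here. The question was which regional differences are already present in the mid intestine, which appear only towards the distal end, and whether any gene is highest or lowest in mid.

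Cells with high PDGFRA lie directly beneath the gut epithelium and secrete growth factors, matrix and Wnt and BMP regulators that act on it. Hox genes encode homeodomain transcription factors in 4 chromosomal clusters. They are numbered by paralog group, and genes with higher numbers are expressed further towards the tail, so that the set of Hox genes a mesenchymal cell expresses reflects its position along the gut. Hox expression in the gut mesenchyme has been linked to regional growth and villus form. Levels are given in RPKM, reads per kilobase of gene scaled to the mapped reads of the library. Changes are differences of log2(RPKM + 0.5), which understate the change of low genes, and 14732 genes were tested. A gene was called where limma's treat test against a minimum log2 change of 0.5 gave a Benjamini-Hochberg adjusted p under 0.05. The way from proximal to mid is named step 1 and the way from mid to distal step 2.

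The clearest pattern was in the Hox clusters. Hox genes of paralog groups 6 to 8 were low or absent in proximal cells and rose in step 1, and of these only Hoxc8 differed by test between mid and distal cells. Those of groups 9 and 10 were at or near 0 until the distal end, and the anterior HoxA genes Hoxa2 to Hoxa5 were higher in mid than distally. Outside the Hox clusters, Cpm, Sema3c, Rassf9 and Twist1 rose in step 1. Aldh1a3, Glp2r, Cxcl2, Plvap and the collagen IV genes Col4a3 and Col4a4 fell in step 2, where Ebf1, Trpm5 and Cd81 rose.

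Against proximal cells, 34 genes (0.231% of those tested) were higher in mid and 9 (0.0611%) were lower. Against distal cells, 59 genes (0.4%) were higher in mid and 14 (0.095%) were lower. Both comparisons use the same 3 mid libraries. Without mid replicate 2, mid replicate 3 or distal replicate 1 the 59 genes became 38, 35 and 34, and without proximal replicate 1, mid replicate 1 or mid replicate 2 the 9 genes became 5 each time. The 14 genes became 9 without mid replicate 3 or without distal replicate 2.

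Genes were sorted into classes by testing the difference between the steps as well. A gene was named early where step 1 was called, the distal and proximal ends differed, and step 1 was larger than step 2 (limma, adjusted p under 0.05 for the difference of the steps). Late is the same with the steps exchanged, and a gene called in both steps in 1 direction moved at both. By these rules 20 genes (0.136%) were early, 24 (0.163%) were late and 6 (0.0407%) moved at both steps, with Hoxc8 counted as early and as moving at both. Of the early genes 19 rose towards the distal end and 1 fell, whereas of the late genes 4 rose and 20 fell. The steps were compared on the log2 scale only. There, a change that is even in RPKM has a larger step 1 if it rises and a larger step 2 if it falls. From proximal to distal, the early gene Hoxc8 had means of 0, 16.1 and 68.5 RPKM. The late gene Aldh1a3 had means of 136, 55.7 and 5.42 RPKM. The part of the scale in these counts was not tested. The early count was 11 without mid replicate 2, and the late count was 13, 12, 14 and 40 without mid replicate 2, mid replicate 3, distal replicate 1 and distal replicate 3. The count for both steps was 3 without mid replicate 1. Under all 18 alternative settings and omissions 9 genes remained early (Cpm, Hoxa6, Hoxa7, Hoxb6, Hoxb7, Hoxb8, Hoxc6, Hoxd8 and Mira), 6 remained late (Adra2c, Aldh1a3, Col4a3, Col4a4, Hoxc10 and Tnfaip3) and Cd81 remained in both steps.

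**Figure D1:**
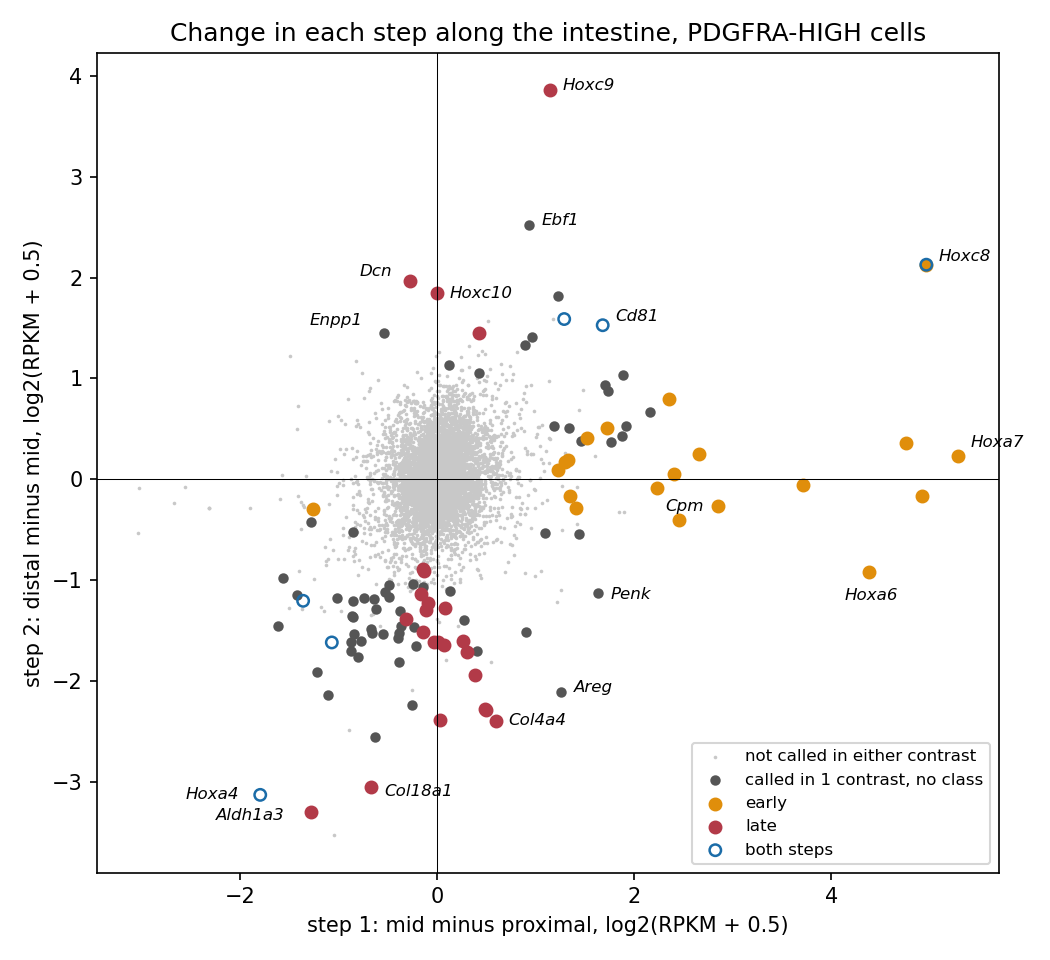
Change of each tested gene in step 1 (horizontal axis, mid minus proximal) and step 2 (vertical axis, distal minus mid), both as log2(RPKM + 0.5) in PDGFRA-HIGH cells, 1 point a gene. Early genes (20, orange) lie along the horizontal axis with Hoxa7 farthest right at 5.28, late genes (24, red) lie along the vertical axis, and most late genes are below 0.

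Most regional genes fell in no class. Distal and proximal cells differed in 363 genes, and 262 of these were called in neither comparison with mid. For the 172 genes higher distally, mid cells had reached a median of 49.9% of the log2 change (quartiles 33.4% and 65.1%). For the 191 genes lower distally, the median was 36.2% (quartiles 20.8% and 51.2%). Mid cells had passed 80% of the change in 21 of the 172 and in 2 of the 191, and had passed less than 20% of it in 12 and 42. These shares describe the libraries on the log2 scale and were not tested. Of the 104 genes called in 1 comparison only, the steps differed by test in 52 and were not shown to differ in the other 52.

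To show sequence at the genes that led step 1, promoters are given for Hoxa7, Hoxd8 and Mira, the 3 early genes of the Hox clusters with the largest step 1 change among those with a promoter in the RefSeq table (GRCm38.p6). Each runs from 250 bases before to 50 after the start of the gene, 5′ to 3′ on its strand. They lie at chr6:52218524-52218823 (Hoxa7, minus strand), chr2:74704365-74704664 (Hoxd8, plus) and chr6:52215239-52215538 (Mira, minus). Capitals mark TTTATG, letters that CDX homeodomain proteins of the posterior gut are known to bind, or CATAAA, the same letters on the other strand.
Hoxa7: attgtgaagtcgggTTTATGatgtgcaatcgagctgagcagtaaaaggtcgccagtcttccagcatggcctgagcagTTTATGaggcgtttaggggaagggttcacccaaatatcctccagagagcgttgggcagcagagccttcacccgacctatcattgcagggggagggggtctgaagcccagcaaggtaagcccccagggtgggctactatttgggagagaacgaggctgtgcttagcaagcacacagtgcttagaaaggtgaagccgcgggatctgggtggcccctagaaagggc
Hoxd8: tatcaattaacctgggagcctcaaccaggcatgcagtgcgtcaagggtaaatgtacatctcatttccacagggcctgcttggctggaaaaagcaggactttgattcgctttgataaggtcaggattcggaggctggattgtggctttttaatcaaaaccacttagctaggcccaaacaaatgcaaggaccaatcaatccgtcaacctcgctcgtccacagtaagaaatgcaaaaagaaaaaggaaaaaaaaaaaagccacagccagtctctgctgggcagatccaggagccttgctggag
Mira: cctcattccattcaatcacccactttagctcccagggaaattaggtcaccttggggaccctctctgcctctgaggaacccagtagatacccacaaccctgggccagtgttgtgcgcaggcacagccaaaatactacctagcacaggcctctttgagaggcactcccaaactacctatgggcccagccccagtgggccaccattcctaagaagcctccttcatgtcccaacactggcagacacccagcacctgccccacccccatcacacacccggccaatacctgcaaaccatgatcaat
Hoxa7 holds these letters at 2 places and the windows of Hoxd8 and Mira at none. They were found in 3 of the 6 promoters available among the 10 early genes of the Hox clusters (Hoxa7, Hoxb8 and Hoxd4), and in 3893 of all 32851 promoters (11.9%). The motif was chosen after the expression values were seen, and a match is a description of these letters and not a site.

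The table held 27 Hox genes, of which 23 passed the filter on low values. The 4 clusters span chr6:52155367-52260880 (HoxA), chr11:96194316-96368254 (HoxB), chr15:102921131-103036856 (HoxC) and chr2:74668225-74765142 (HoxD) in GRCm38.p6. Some Hox transcripts of a cluster overlap on the same strand and some paralogs are alike in sequence, so reads near shared exons could be assigned to a neighbour.

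All 8 Hox genes of groups 6 to 8 in the table were higher in mid than in proximal cells, by 2.46 to 5.28 on the log2 scale. All 8 were early. The 8 calls of step 1 held under all 18 alternatives, and the early class of Hoxc8 was lost in the fit on the 9 PDGFRA-HIGH libraries and with limma-voom. Of the 8, only Hoxc8 was also called lower in mid than in distal cells. Every mid library of Hoxc6 lay below every distal one as well, but its mid minus distal change of −0.25 was not called. The median of the 10 tested genes of groups 6 to 13 was 3.28 in step 1, against a median of 0.00 over all genes. With genes at 0 in proximal cells set to their lower bound it was 3.71 over 9 genes, Hoxc10 being at 0 in both groups.

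Hoxa7, a group 7 gene of the HoxA cluster, had 0.128, 0 and 0.0409 RPKM in proximal replicates 1 to 3. In mid it had 23.4, 29.8 and 13.2 RPKM, and in distal 21.7, 28.6 and 24.6 RPKM. Every mid library lay above every proximal one, and mid and distal libraries overlapped. The change in step 1 was 5.28 ± 0.21 (SE, n = 3 per group, limma treat adjusted p = 3.59e-12), and mid minus distal was −0.23 (adjusted p = 1).

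Hoxd8, the group 8 gene of the HoxD cluster, read 0.982, 0.662 and 0.393 RPKM proximally, 34.6, 33.5 and 35 RPKM in mid, and 28.4, 28 and 35.9 RPKM distally. Mid exceeded proximal by 4.92 ± 0.18 (SE, n = 3, limma treat adjusted p = 1.6e-12). The mid libraries lay within the distal range, and mid minus distal was 0.17 (adjusted p = 1).

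In the HoxB cluster the early genes were Hoxb6, Hoxb7 and Hoxb8. Hoxb8 had 0.944, 0.931 and 0.86 RPKM in proximal, 18.5, 20.3 and 15.6 RPKM in mid and 14.3, 15.8 and 22.9 RPKM in distal libraries. Mid was above proximal in all 3 pairs, with a change of 3.71 ± 0.15 (SE, limma treat adjusted p = 9.79e-12). Hoxb7 and Hoxb6 were already present proximally, at means of 3.23 ± 0.0992 and 6.57 ± 0.881 RPKM (SD, n = 3). They rose by 2.85 and 2.46 in step 1 (adjusted p = 8.36e-09 and 9.73e-07). Hoxb6 had its highest mean in mid, 33.7, 50.4 and 32.5 RPKM against 23.7, 30.8 and 32.5 RPKM distally, and mid minus distal was 0.40 (adjusted p = 1).

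Hoxa6 had its highest levels in mid as well. It read 0.643, 0.749 and 0.171 RPKM proximally, 20.7, 21.3 and 18.4 RPKM in mid and 8.64, 11 and 11.7 RPKM distally, so the 3 groups did not overlap. Step 1 was called, at 4.39 ± 0.20 (SE, n = 3, limma treat adjusted p = 2.28e-11), whereas mid minus distal, 0.92, was not (adjusted p = 1). Beside it, the long noncoding RNA Mira of the HoxA cluster rose from 0.0594 to 15.1 RPKM in step 1 and stood at 19.1 RPKM distally (step 1 change 4.75, adjusted p = 2.28e-11). Hoxc6 rose from a mean of 5.3 to 36 RPKM in step 1 and was at 43 RPKM distally (change 2.66, adjusted p = 1.59e-08).

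Hoxc8 moved at both steps. It was listed at 0 in all 3 proximal libraries, at 19.9, 19.8 and 8.71 RPKM in mid and at 60, 61.4 and 84.1 RPKM in distal libraries. These are 0 reads, 514 to 1007 reads and 2684 to 3991 reads. Mid cells were at least 243-fold higher than the level that 3 reads would give in each proximal library. Mid was lower than distal by 2.13 ± 0.23 (SE, n = 3, limma treat adjusted p = 0.000223), with no overlap of the groups. That call was lost in the fit on the 9 PDGFRA-HIGH libraries alone (adjusted p = 0.246).

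Group 9 and 10 genes rose in step 2. Hoxc9 was listed at 0 in all proximal libraries, at 0.951, 0.867 and 0.187 RPKM in mid (8 to 35 reads) and at 16.4, 16.4 and 14 RPKM in distal libraries (483 to 609 reads). Mid was lower than distal by 3.86 ± 0.20 (SE, n = 3, limma treat adjusted p = 2.67e-09). Hoxc10 had no read in any proximal or mid library and 44 to 58 reads in distal ones, or 1.6, 1.07 and 1.25 RPKM, at least 16.2-fold above the level of 3 reads per mid library. Both were late. The other 4 genes of groups 9 to 13 in the table did not pass the filter. Hoxb9 had 0 or 1 read in each proximal and mid library and 22 to 39 reads distally, Hoxa9 had 0 or 1 and 12 to 23, Hoxd9 had 0 to 4 and 15 to 24, and Hoxa10 had 0 and 3 or 4.

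Among the anterior genes of groups 1 to 5, the step 2 calls were all in the HoxA cluster. In step 1, 1 of the 13 tested was higher in mid (Hoxd4) and 1 was lower (Hoxa4), against 0.231% and 0.0611% of all genes. In step 2, 4 of 13 were higher in mid than distally, against 0.4% of all genes, and all 4 were HoxA genes (Hoxa2, Hoxa3, Hoxa4 and Hoxa5). The median of the 13 was −0.29 for mid minus proximal and 0.49 for mid minus distal, against 0.00 and 0.02 over all genes. By direction alone, 11 of the 13 (84.6%) were higher in mid than distally, against 54.6% of all genes. Hoxb5 had means of 10.2, 6.44 and 3.59 RPKM from proximal to distal with no overlap of the groups, but neither step was called. A difference between the clusters was not tested.

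Hoxa4 fell at both steps. Its levels were 51.3, 48 and 59.9 RPKM in proximal, 10.2, 14.6 and 21.9 RPKM in mid and 1.18, 1 and 1.63 RPKM in distal libraries, with no overlap between any of the groups. Mid minus proximal was −1.80 ± 0.23 (SE, n = 3, limma treat adjusted p = 0.00396) and mid minus distal was 3.13 ± 0.23 (adjusted p = 8.12e-07). Without mid replicate 1, the library with the lowest mid level, the first value was −1.51 with an adjusted p of 0.0518. Hoxa2 and Hoxa3 had the same order of regions. Hoxa2 had means of 36.2, 16.7 and 3.41 RPKM and Hoxa3 means of 48.8, 26.5 and 7.93 RPKM in proximal, mid and distal cells. For both only step 2 passed the test (mid minus distal 2.14 and 1.70, adjusted p = 2.53e-06 and 1.15e-05).

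Hoxa5, the next gene of the cluster, fell in step 2 and was late, a class that it lost under 5 of the 18 alternatives. Proximal libraries had 41.4, 34.7 and 45.4 RPKM, mid libraries 47.8, 46.6 and 54.8 RPKM and distal libraries 12.6, 13.9 and 18.5 RPKM. Mid minus distal was 1.71 ± 0.21 (SE, n = 3, limma treat adjusted p = 0.00271). The long noncoding RNA 5730596B20Rik near the anterior end of HoxA followed Hoxa3, at means of 2.42, 1.41 and 0.145 RPKM, and was called in step 2 (1.52, adjusted p = 0.00103).

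Hoxc4 and Hoxc5 were highest in mid without passing either test. Hoxc5 had 5.32, 4.61 and 5.03 RPKM proximally, 10.6, 9.62 and 11.2 RPKM in mid and 4.64, 5.32 and 5.45 RPKM distally. All mid libraries lay above all others, yet the changes of 0.996 and 0.958 gave adjusted p = 0.109 and 0.127 (limma treat, minimum log2 change 0.5). On the recovered reads with limma-voom both comparisons of Hoxc5 passed (adjusted p = 0.0297 and 0.0362). Hoxd4 was early like the group 6 to 8 genes, with 0.0195, 0 and 0.0312 RPKM proximally, 2.46, 1.49 and 2.93 RPKM in mid and 2.32, 2.87 and 1.87 RPKM distally (step 1 2.40, adjusted p = 7.37e-05). Unlike theirs, its step 1 change in PDGFRA-MED cells, 0.56, was not called. In sorted epithelial cells Hoxd4 had means of 0.00679, 1.73 and 4.66 RPKM from proximal to distal. The part of epithelial RNA in its levels was not tested.

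Among the mid libraries, replicate 3 had the lowest levels of Hoxc8, Hoxc9 and Hoxa7 and the highest of Hoxa2, Hoxa3 and Hoxa4. It also had the highest mid levels of Hoxd3, Hoxd4 and Hoxd8. Replicate 3 was highest for Hoxa2, Hoxa3 and Hoxa4 among the proximal and among the distal libraries as well. Mid replicate 3 had the highest summed level of smooth muscle markers of the 9 libraries (716.5 RPKM). The part of these Hox levels or of the muscle markers in the results was not tested. The 8 calls of groups 6 to 8 in step 1 and that of Hoxc9 in step 2 were also made without it.

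**Figure D2:**
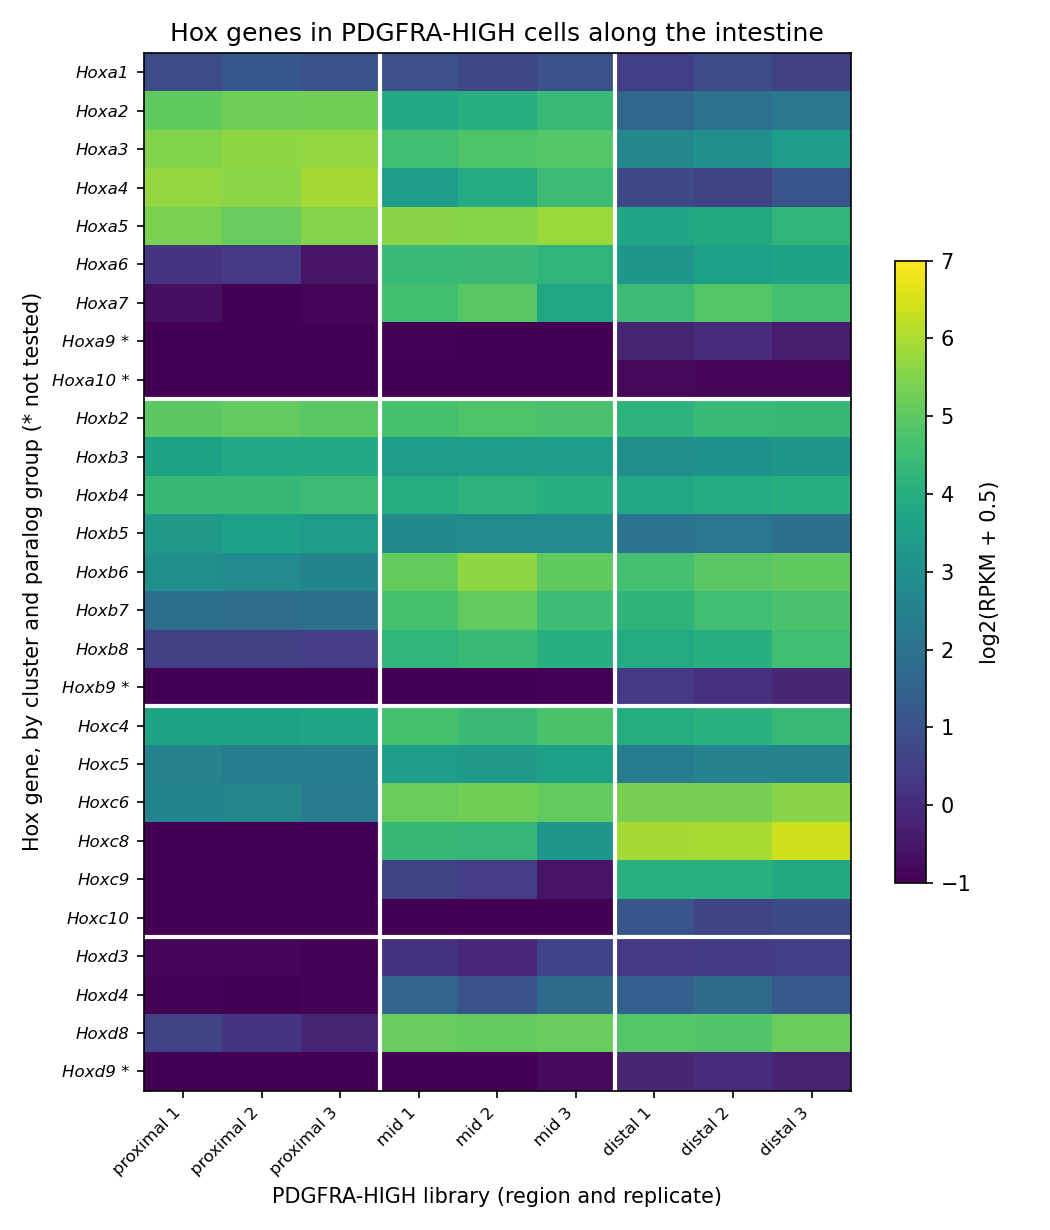
Level of 27 Hox genes as log2(RPKM + 0.5) (colour scale) in the 9 PDGFRA-HIGH libraries (columns), ordered by cluster and paralog group (each line of the map is a gene, and * marks the genes that did not pass the filter). Groups 6 to 8 are dark in the 3 proximal libraries and bright in the mid and distal ones, whereas groups 9 and 10 are brightest in the 3 distal libraries.

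By Pearson's r of log2 levels over the 9 libraries, the genes most like Hoxc8 were Edil3 and Arsj (both 0.997), then Col15a1, Rassf9 and Sema3c (each 0.993). Those most like Hoxa4 were Ccbe1 (0.997), Ptpru, Casq2 and Hoxa2 (each 0.995) and Cd9 (0.994). These values describe a likeness over libraries that share 3 regions and carry no test.

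Outside the Hox clusters, few members of the gene lists were called higher in mid than proximally, with 1 of 36 other secreted factors (Penk) and 0 of 31 adhesion genes. Of all genes tested, 0.231% were called in this direction. Cpm, which encodes a membrane carboxypeptidase that trims peptide ligands, had 3.31, 4.03 and 4.62 RPKM proximally, 19.5, 19.4 and 22.2 RPKM in mid and 16.4, 16.4 and 26.1 RPKM distally. It rose by 2.23 ± 0.18 (SE, n = 3, limma treat adjusted p = 3.45e-06) and mid and distal cells did not differ by test (mid minus distal 0.09, adjusted p = 1). All mid libraries exceeded all proximal ones and lay within the distal range.

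Rassf9, an endosomal RAS-association domain protein, had 4.38, 3.14 and 3.02 RPKM proximally, 21, 23.2 and 15.7 RPKM in mid and 36, 32.6 and 35.3 RPKM distally. It rose by 2.35 ± 0.17 in step 1 (SE, n = 3, limma treat adjusted p = 5.61e-07). Sema3c, a secreted guidance cue of the semaphorin class 3, had 35.8, 40.4 and 37.8 RPKM proximally, 129, 144 and 108 RPKM in mid and 159, 170 and 212 RPKM distally. Its step 1 change was 1.72 ± 0.15 (adjusted p = 7.37e-05), and it was the only one of 33 tested semaphorins, slits and ephrins to be called in either comparison. Both genes were early, but the early class of Rassf9 was lost under 3 of the 18 alternatives and that of Sema3c under 9, while the step 1 call held in all.

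Twist1, a basic helix-loop-helix factor of mesenchyme, had 1.99, 3.02 and 2.62 RPKM proximally, 12.4, 12.1 and 7.93 RPKM in mid and 23.8, 21.1 and 22.1 RPKM distally. The groups did not overlap, and step 1 was called (1.88 ± 0.20 SE, n = 3, limma treat adjusted p = 0.000279) whereas mid minus distal was −1.04 (adjusted p = 0.597). Of 41 tested transcription factors of the gut mesenchyme it was the only one called in step 1. Ndnf, a secreted neuron-derived factor, rose from 0.979 to 5.07 RPKM (1.92, adjusted p = 0.000337) and was at 7.7 RPKM distally. Edil3, a secreted integrin ligand, rose from 0.324 to 2.19 RPKM (1.70, adjusted p = 0.000159) and was at 4.6 RPKM distally.

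Of further matrix genes, Col6a6, a collagen VI chain, rose in step 1 from a mean of 4.56 to 22.2 RPKM (2.16, adjusted p = 0.00191). Postn, the matricellular protein periostin, was at 47, 44.9 and 60.3 RPKM proximally and 190, 162 and 164 RPKM in mid (1.76, adjusted p = 0.0112). Without proximal replicate 1, proximal replicate 2 or mid replicate 1, or with a pseudocount of 0.1, its adjusted p was 0.0595 to 0.128. Postn was the only one of the 41 listed interstitial matrix genes to be called in step 1, and Col6a6 is not on that list.

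Cd81, a tetraspanin, was the only gene that rose at both steps under every alternative. Its levels were 3.42, 2.83 and 2.45 RPKM in proximal, 10.2, 12.2 and 8.8 RPKM in mid and 31.2, 32.3 and 28.6 RPKM in distal libraries, and the groups were well apart. Step 1 was 1.68 ± 0.14 (SE, n = 3, limma treat adjusted p = 2.6e-05) and mid minus distal −1.53 ± 0.14 (adjusted p = 0.000135). Cd109, a membrane protein that binds TGF-beta, also rose at both steps (0.841, 2.81 and 9.37 RPKM). Its step 1 call was lost without any of the 3 proximal libraries or mid replicates 1 and 2 (adjusted p 0.0548 to 0.542 over all settings that lost it).

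The 9 genes lower in mid than in proximal cells were Hoxa4, Cxcl5, Sod3, Plac8, Nmur2, Esrrb, Lpl, Casq2 and Tshz1. Esrrb, an orphan nuclear receptor, had 1.11, 1.04 and 1.39 RPKM proximally, 0.232, 0.1 and 0.269 RPKM in mid and 0.103, 0.0402 and 0.0648 RPKM distally. Its fall in step 1 was 1.27 on the log2 scale (−1.27 ± 0.10 SE, n = 3, limma treat adjusted p = 0.000166), and it was the only early gene that fell. Esrrb lost its early class with a pseudocount of 0.1, in the fit on the PDGFRA-HIGH libraries alone, with limma-voom and without mid replicate 2. Its mid and distal levels lay below the 0.5 added to RPKM, so its step 2 change is understated. Cxcl5, a neutrophil chemokine, fell from 2.77 to 0.614 RPKM (−1.56, adjusted p = 0.000188).

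Nmur2, a receptor for neuromedin U, and Casq2, a calcium store protein, fell at both steps. Nmur2 had means of 2.5, 0.688 and 0.00508 RPKM and Casq2 means of 12.7, 5.78 and 1.56 RPKM. Their step 1 values were −1.36 and −1.07 (adjusted p = 0.00274 and 0.0323). The step 1 call of Casq2 was lost without any of the 3 proximal libraries or mid replicates 1 and 2, with adjusted p up to 1. The step 2 call of Nmur2 was lost without mid replicate 3, distal replicate 1 or distal replicate 2 (adjusted p 0.0591 to 1 over all settings that lost it). Tshz1, a zinc finger factor, was at 82.5 RPKM proximally and 45.7 RPKM in mid (−0.85, adjusted p = 0.0309). It lost its call without any of the 3 proximal libraries or mid replicate 1 (adjusted p up to 0.41). Sod3, Plac8 and Lpl had changes of −1.62, −1.43 and −1.28. Sod3 lost its call without any 1 of the 6 libraries compared, Plac8 without proximal replicate 1 or mid replicate 2, and Lpl without proximal replicate 3 or mid replicates 1 or 2 (adjusted p 0.0517 to 0.297 over the settings that lost them).

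**Figure D3:**
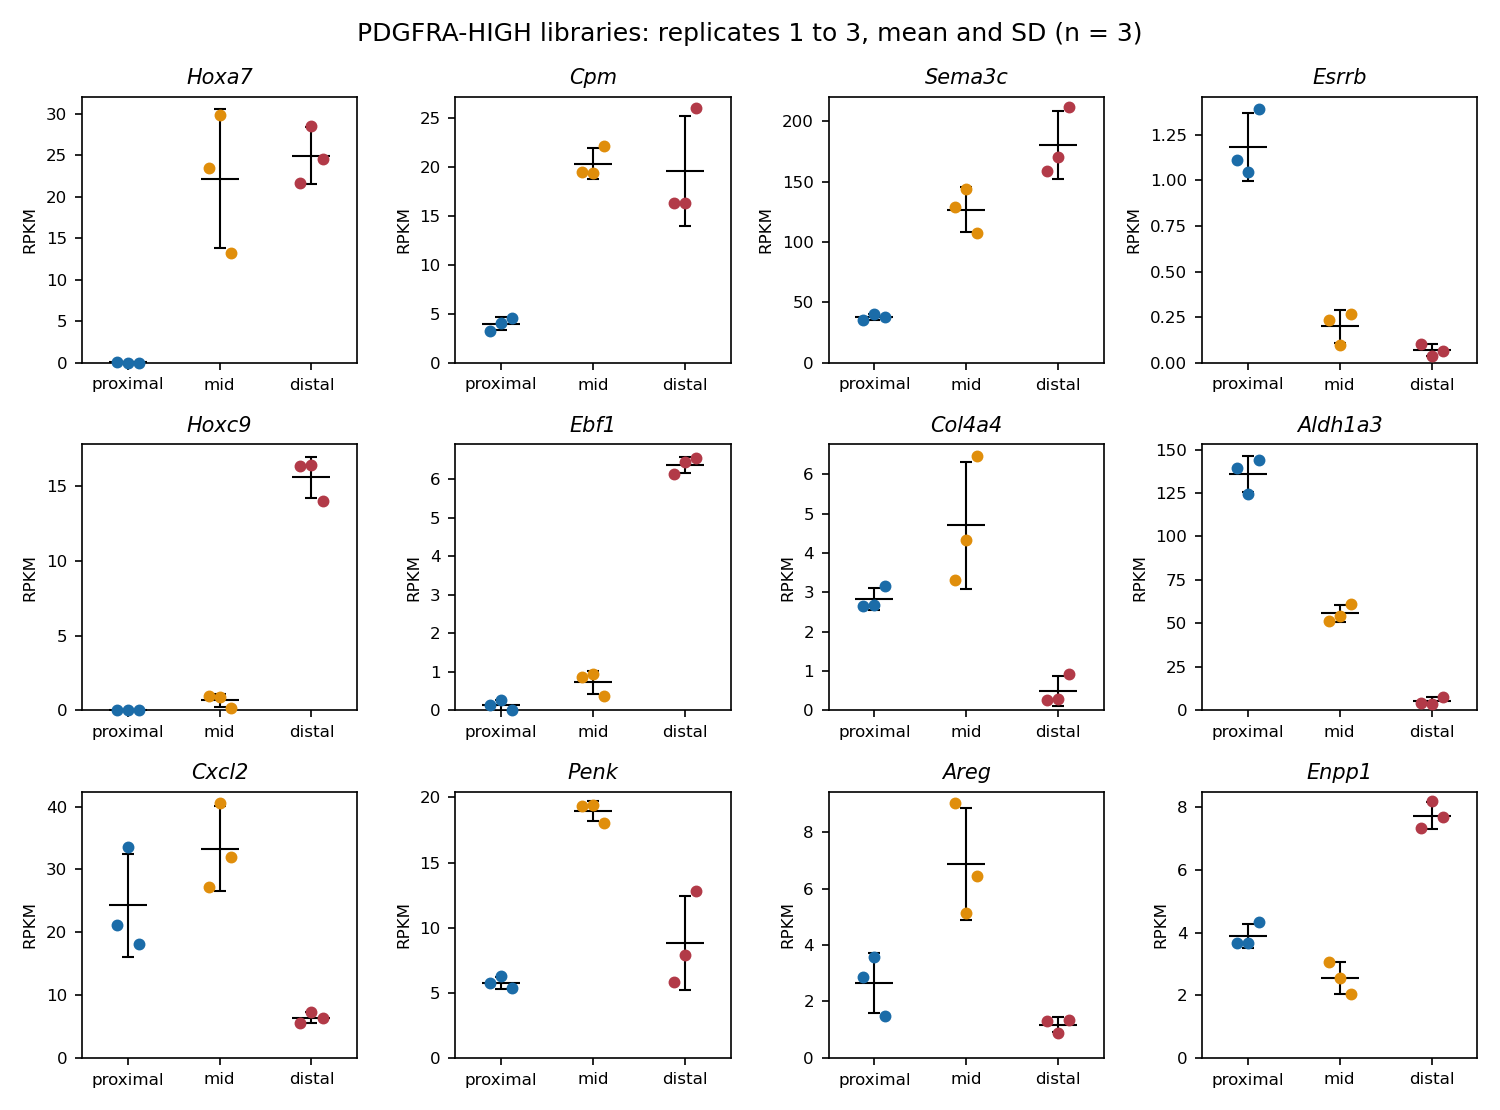
RPKM of 12 genes in the proximal, mid and distal PDGFRA-HIGH libraries, with each replicate as a point and the mean with its SD (n = 3) as a bar, on axes that start at 0. Hoxa7 and Cpm reach their distal level in mid, Hoxc9 and Ebf1 stay low until the distal end, Col4a4, Penk and Areg are highest in mid, and Enpp1 is lowest in mid.

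Most genes called in step 2 were higher in mid than distally. Aldh1a3, which makes retinoic acid from retinal, had 139, 124 and 144 RPKM proximally, 51.5, 54.2 and 61.5 RPKM in mid and 4.47, 3.95 and 7.84 RPKM distally. Mid exceeded distal by 3.30 ± 0.18 (SE, n = 3, limma treat adjusted p = 6.51e-09), while the step 1 fall, −1.28, did not pass (adjusted p = 0.0579). The 3 groups did not overlap. It was the only one of 15 tested retinoic acid pathway genes to be called in step 2.

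Basement membrane genes contributed 4 of the 59, out of 28 tested, with a range of 3 to 4 over 17 alternatives. Of all genes tested, 0.4% were called in this direction. Col18a1, the collagen that yields endostatin, had 59.2, 62.5 and 78.7 RPKM proximally, 32.9, 40.5 and 53.5 RPKM in mid and 3.26, 3.68 and 7.67 RPKM distally (mid minus distal 3.06 ± 0.24 SE, n = 3, limma treat adjusted p = 2.53e-06). Col4a4 had 2.66, 2.69 and 3.17 RPKM proximally, 3.3, 4.34 and 6.45 RPKM in mid and 0.271, 0.285 and 0.934 RPKM distally (2.40 ± 0.17, adjusted p = 8.52e-07). Mid libraries lay above all libraries of both ends for Col4a4. Its head-to-head neighbour Col4a3 followed it, with means of 2.95, 4.55 and 0.526 RPKM (2.29, adjusted p = 3.42e-06). Npnt, the integrin ligand nephronectin, fell from 202 ± 35.4 RPKM in mid to 59.6 ± 25.7 RPKM distally (SD, n = 3), a call that was lost without mid replicates 2 or 3 or distal replicates 1 or 2 (adjusted p 0.0592 to 0.0907).

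Several called genes encode chemokines. Of 20 listed chemokines and cytokines tested, 3 were higher in mid than distally (Cxcl1, Cxcl2 and Cxcl10), against 0.4% of all genes. Over the alternatives with a minimum fold change 1 to 5 were called. Of the same 20, 1 (Cxcl5) was lower in mid than proximally, against 0.0611% of all genes. Cxcl3, a chemokine that is not on the list, was also higher in mid than distally (1.18, adjusted p = 0.0448), a call lost under 12 of the 18 alternatives, among them the omission of proximal replicates 2 or 3, mid replicates 2 or 3 or distal replicates 1 or 3 (adjusted p 0.0517 to 0.558). The list median was 0.64 for mid minus distal and −0.10 for mid minus proximal. Cxcl2, a neutrophil attractant, had 21.2, 33.5 and 18.1 RPKM proximally, 27.2, 40.6 and 32 RPKM in mid and 5.62, 7.25 and 6.41 RPKM distally. Mid minus distal was 2.27 ± 0.23 (SE, n = 3, limma treat adjusted p = 7.91e-05), and mid and proximal libraries overlapped.

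Tnfaip3, a ubiquitin editor that restrains NF-kB, had 24.2, 29.5 and 31.1 RPKM in mid and 5.61, 7.59 and 7.83 RPKM distally (1.94 ± 0.21 SE, n = 3, limma treat adjusted p = 0.000528), and 18.1 to 28.2 RPKM proximally. Nfkbia, the inhibitor IkB-alpha, had means of 206, 246 and 80.2 RPKM from proximal to distal (1.60, adjusted p = 0.00701), and Cxcl1 had 77.9, 101 and 30.7 RPKM (1.70, adjusted p = 0.019). Nfkbia lost its call without mid replicates 2 or 3 or distal replicate 1 (adjusted p 0.0684 to 0.0805), and Cxcl1 without mid replicates 2 or 3 or distal replicates 1 or 2 (adjusted p 0.0976 to 0.127). In each region replicate 2 had the highest Cxcl2 and Nfkbia. The 26 tested immediate early and heat shock genes, which respond to dissociation, had medians of 0.16 and 0.19 for mid minus proximal and mid minus distal. None of them was called by limma treat or limma-voom, and 1 was higher in mid than distally at an unadjusted p under 0.05.

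The promoters of 3 of these genes, picked because they hold the same motif, are shown in the same way, at chr5:90890995-90891294 (Cxcl1, plus strand), chr5:90903649-90903948 (Cxcl2, plus) and chr12:55492598-55492897 (Nfkbia, minus). Capitals mark GGGAATTTCC, or GGAAATTCCC on the other strand, the longest run of letters that all 3 promoters hold on either strand. It is a form of the kappaB element that NF-kB is known to bind, and does not overlap TTTATG or CATAAA.
Cxcl1: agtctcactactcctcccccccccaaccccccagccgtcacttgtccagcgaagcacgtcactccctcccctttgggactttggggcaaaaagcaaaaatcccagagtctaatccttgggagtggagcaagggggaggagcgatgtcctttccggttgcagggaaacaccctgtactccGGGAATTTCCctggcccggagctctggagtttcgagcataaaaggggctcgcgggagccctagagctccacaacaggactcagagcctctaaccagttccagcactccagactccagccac
Cxcl2: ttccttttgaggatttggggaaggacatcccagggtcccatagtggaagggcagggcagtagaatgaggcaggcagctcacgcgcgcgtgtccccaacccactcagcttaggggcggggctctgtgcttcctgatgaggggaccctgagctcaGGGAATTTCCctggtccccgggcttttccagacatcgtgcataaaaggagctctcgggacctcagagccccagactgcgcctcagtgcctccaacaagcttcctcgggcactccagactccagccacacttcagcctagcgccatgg
Nfkbia: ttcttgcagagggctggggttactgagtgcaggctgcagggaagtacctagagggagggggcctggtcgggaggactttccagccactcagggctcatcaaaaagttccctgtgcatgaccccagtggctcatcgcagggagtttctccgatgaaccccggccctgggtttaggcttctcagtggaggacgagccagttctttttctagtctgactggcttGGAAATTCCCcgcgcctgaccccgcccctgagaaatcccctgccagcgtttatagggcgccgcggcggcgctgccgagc
These letters were found in 4 of the 49 promoters available for the 59 genes higher in mid than distally (those of Cxcl1, Cxcl2, Cxcl3 and Nfkbia) and in 29 of 32851 promoters (0.0883%). The 3 genes were chosen after the values were seen, so that they fixed the motif, and Cxcl1, Cxcl2 and Cxcl3 are neighbouring copies that share sequence.

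EGF family ligands signal to receptors on the overlying epithelium. Of the 12 tested, 3 were higher in mid than distally (Areg, Ereg and Btc), against 0.4% of all genes. Over the alternatives with a minimum fold change 1 to 3 were called. Areg, amphiregulin, had 2.87, 3.58 and 1.5 RPKM proximally, 9.04, 5.15 and 6.46 RPKM in mid and 1.32, 0.891 and 1.33 RPKM distally. Every mid library exceeded every other. Mid minus distal was 2.11 ± 0.25 (SE, n = 3, limma treat adjusted p = 0.00103) and mid minus proximal 1.26 (adjusted p = 0.682). Ereg, epiregulin, had means of 2.42, 2.46 and 0.465 RPKM (1.61, adjusted p = 0.000218), and Btc, betacellulin, 1.26, 1.15 and 0.167 RPKM (1.30, adjusted p = 0.00358). The Areg call was lost in the fit on the 9 libraries alone and with limma-voom (adjusted p 0.0574 and 0.0571), and that of Btc without mid replicate 2 or 3, with a pseudocount of 1 and in the fit on 9 libraries (0.0503 to 0.162). In sorted epithelial cells the means from proximal to distal were higher, at 34.33, 22.45 and 16.36 RPKM for Areg and 2.09, 2.2 and 2.75 RPKM for Btc. The part of epithelial RNA in the levels of these ligands was not tested.

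Glp2r, the receptor for the gut growth hormone GLP-2, had 146.3, 165.1 and 197.8 RPKM proximally, 134, 150 and 176 RPKM in mid and 40.9, 46.4 and 77.4 RPKM distally. Mid and proximal libraries overlapped and the distal ones lay apart (mid minus distal 1.52 ± 0.13 SE, n = 3, limma treat adjusted p = 8.68e-05). Adra2c, an adrenergic receptor, held 4.77 and 5.03 RPKM in proximal and mid cells and 1.33 RPKM distally (1.64, adjusted p = 4.99e-05). Plvap, a protein of endothelial diaphragms, had 14.5, 15.5 and 16.1 RPKM in mid and 1.71, 2.46 and 3.74 RPKM distally (2.39, adjusted p = 0.00191). The 9 endothelial markers in the table summed to 5.41 to 7.97 RPKM in each of the 9 libraries, highest in the distal ones.

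Among Wnt genes, Wnt4, a mainly non-canonical ligand, was higher in mid than distally (6.53, 6.11 and 10.6, then 3.37, 3.47 and 4.89, then 0.707, 0.559 and 1.78 RPKM, from proximal to distal). The change was 1.61 ± 0.22 (SE, n = 3, limma treat adjusted p = 0.00796), and the call was lost without mid replicate 3, distal replicate 1 or distal replicate 2 or without the replicate block (adjusted p 0.0542 to 0.0993). It was the only one of 7 tested Wnt ligands called. Of 12 secreted Wnt modulators only Rspo3, an agonist, was called, higher in mid than proximally. That call was lost under 12 of the 18 alternatives, including those without proximal replicates 1 or 2, any mid replicate or distal replicate 3 (adjusted p 0.0549 to 0.42). None of the 17 BMP ligands and antagonists and none of the 14 Hedgehog receptors and targets was called by limma treat or limma-voom, with 1 and 0 genes at an unadjusted p under 0.05. Without a minimum fold change 2 of the BMP genes were lower in mid than proximally and 3 were higher in mid than distally. No Hedgehog gene was called without it.

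Interferon and antigen presentation genes were higher in mid than distally in 4 of 27 tested (Gbp2, Gbp3, Gbp7 and Psmb8), against 0.4% of all genes. In 25 of 27 (92.6%) the mid mean of log2 levels was above the distal one, against 54.6% of all genes. The list median was 0.48, and the number called ranged from 1 to 6 over the alternatives with a minimum fold change. Gbp3, an interferon-induced GTPase, had 1.82, 3.1 and 4.29 RPKM in mid and 0.141, 0.581 and 0.965 RPKM distally (1.77, limma treat adjusted p = 0.00187). The 40 genes of DNA replication and mitosis moved the other way. All 40 had a lower mid than distal mean against 45% of all genes, and the median was −0.64. None was called by limma treat or limma-voom, 10 had an unadjusted p under 0.05 and 25 were called without a minimum fold change.

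Few genes were lower in mid than distally. Ebf1, a transcription factor of stromal and B cells, had 0.133, 0.28 and 0 RPKM proximally, 0.873, 0.938 and 0.375 RPKM in mid and 6.15, 6.44 and 6.55 RPKM distally. Mid minus distal was −2.52 ± 0.23 (SE, n = 3, limma treat adjusted p = 1.55e-05), with no overlap. Dcn, the matrix proteoglycan decorin, had 33.6, 21.8 and 17.1 RPKM in mid and 104, 90.7 and 83.8 RPKM distally (−1.97, adjusted p = 0.0141), and 23.3 to 38.5 RPKM proximally. Dsp, the desmosome protein desmoplakin, had means of 5.12, 13.1 and 45.5 RPKM (−1.82, adjusted p = 0.012). Dcn lost its call without mid replicates 2 or 3 or distal replicates 1 or 2, and Dsp without mid replicate 3 or distal replicates 1 or 2 (adjusted p 0.0565 to 0.157 over the settings that lost them). Trpm5, a cation channel, was at 0.376, 0.672 and 2.73 RPKM (−1.46, adjusted p = 3.12e-06).

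In the other sort, Cd81 was at 55.3 RPKM in mid PDGFRA-MED cells and Dcn at 401 RPKM. Whether PDGFRA-MED cells within the gate had a part in these changes was not tested. In bulk samples, fewer cells of a type and less RNA per cell cannot be told apart.

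No gene was called as a peak (mid above both ends) and none as a dip (mid below both) by limma treat. At an unadjusted p under 0.05 in both comparisons there were 6 peaks and 1 dip. Limma-voom called 1 peak (Hoxc5) and no dip, the fit on the 9 libraries alone 1 peak (Cxcl10), and omission of proximal replicate 2 gave 1 peak (Areg). Without a minimum fold change there were 17 peaks and 7 dips. Beside Hoxc5, described above, 9 genes were called in 1 comparison, with unequal steps and no called difference between the ends. They were Areg, Cxcl1, Cxcl10, Nfkbid, Penk, Prr7, Rpia and Sertm1 on the high side and Enpp1 on the low side, a group drawn up after the values were seen.

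Penk, the precursor of enkephalins, had 5.73, 6.27 and 5.34 RPKM proximally, 19.4, 19.4 and 18.1 RPKM in mid and 5.81, 7.89 and 12.8 RPKM distally. All mid libraries lay above all others. Mid minus proximal was 1.63 (limma treat adjusted p = 0.0323) and mid minus distal 1.13 (adjusted p = 0.801), and the difference of the steps had an adjusted p of 0.00156. The step 1 call of Penk was lost without any of the 3 proximal libraries or mid replicates 1 and 2, and under 3 other settings (adjusted p 0.0537 to 0.326). Rpia, an enzyme of the pentose phosphate pathway, had 11.8, 12.4 and 12.1 RPKM proximally, 26.8, 27.3 and 25.1 RPKM in mid and 15.4, 16.3 and 23.4 RPKM distally (step 1 1.10, adjusted p = 0.00285).

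Cxcl10, an interferon-induced chemokine, had 24.6, 30.1 and 24.8 RPKM proximally, 47.8, 51.8 and 49.5 RPKM in mid and 15.5, 18.5 and 17.3 RPKM distally, again with no mid library inside either end. Mid minus distal was 1.52 (limma treat adjusted p = 0.00403) and mid minus proximal 0.90 (adjusted p = 1). Its call was lost without mid replicate 3 or distal replicate 1 (adjusted p 0.0573 at most). Enpp1, which makes pyrophosphate from ATP, had 3.67, 3.67 and 4.35 RPKM proximally, 3.07, 2.54 and 2.03 RPKM in mid and 7.33, 8.2 and 7.68 RPKM distally (mid minus distal −1.45, adjusted p = 0.000101, and mid minus proximal −0.54, adjusted p = 1).

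The same steps were compared with those of PDGFRA-MED cells by an interaction term (limma, no minimum fold change). The mid minus proximal change differed between the sorts in 172 genes (1.17%), among them 30 of the 43 genes called in PDGFRA-HIGH cells. The mid minus distal change differed in 258 genes (1.75%), among them 46 of the 73. The 172 became 102 without mid replicate 1, and the 258 became 149, 95 and 106 without mid replicate 2, mid replicate 3 and distal replicate 1 and was 1.91 times smaller without distal replicate 2. Within PDGFRA-MED cells, 19 and 21 genes were called in the respective comparisons, 10 and 9 of them shared with PDGFRA-HIGH cells.

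The step 1 change of Sema3c differed between the sorts, with means of 15.3 and 9.45 RPKM in proximal and mid PDGFRA-MED cells and an interaction of 2.39 (adjusted p = 1.03e-05). Cpm stayed near 0.5 RPKM in PDGFRA-MED cells, at 0.523 and 0.492 RPKM (interaction 2.25, adjusted p = 5.78e-05). Cd81 was between 55.3 and 61.8 RPKM in PDGFRA-MED cells of all regions (interactions 1.84 and −1.50, adjusted p = 4.08e-05 and 0.000362). Col4a4 and Col18a1 fell distally in PDGFRA-HIGH cells, by more than in PDGFRA-MED cells (interactions 2.42 and 2.61, adjusted p = 4.31e-05 and 0.000427). The Col4a4 interaction had an adjusted p of 0.0676 with limma-voom.

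The 8 Hox genes of groups 6 to 8 were called in step 1 in PDGFRA-MED cells as well. Hoxc6 rose from 2.07 to 13.1 RPKM in PDGFRA-MED cells, and its change did not differ by test between the sorts (interaction 0.20, adjusted p = 0.819). Hoxa7 rose from 0.153 to 6.5 RPKM there, less than in PDGFRA-HIGH cells on this scale (interaction 1.92, adjusted p = 0.00164). In sorted epithelial cells, Hoxb6, Hoxb7 and Hoxb8 had means of 4.51, 7.93 and 2.19 RPKM distally and 0.159, 0.23 and 0.0199 RPKM proximally, while Hoxa6, Hoxa7, Hoxc6, Hoxc8 and Hoxd8 lay between 0 and 0.289 RPKM in all 3 regions.

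**Figure D4:**
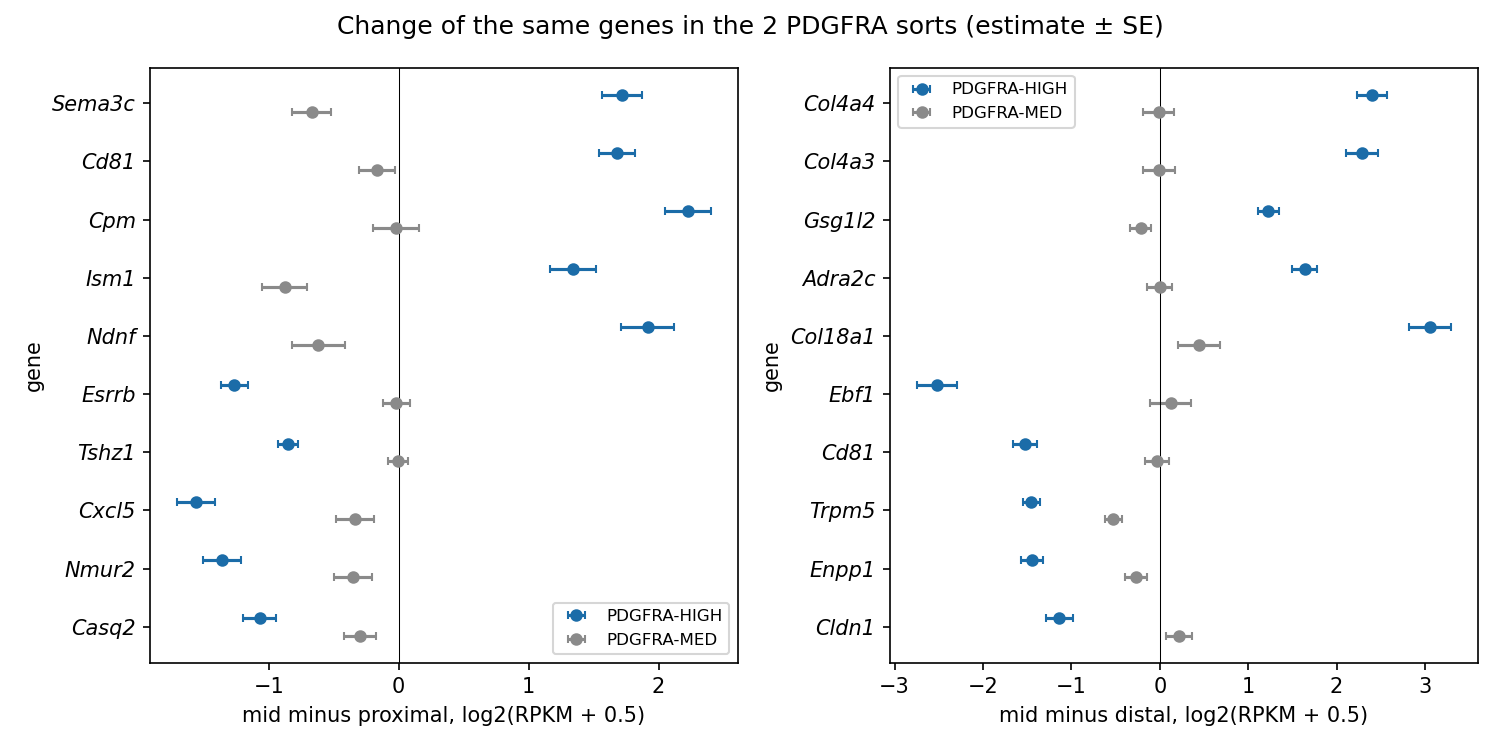
Change from proximal (left panel) and from distal (right panel) to mid on the log2(RPKM + 0.5) scale for 10 genes each, in PDGFRA-HIGH (blue) and PDGFRA-MED cells (grey), as estimate ± SE with 3 libraries per region and sort. The blue and grey points lie apart for every gene shown, by 2.54 for Ndnf on the left and by −2.64 for Ebf1 on the right.

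The 9 libraries held 20091905 to 26658039 recovered reads and 15973 to 16315 genes with a read. The sort was checked by 13 PDGFRA-HIGH markers, which summed to 2210 to 2731 RPKM in proximal, 2222 to 2597 RPKM in mid and 1517 to 1995 RPKM in distal libraries, against 112.1 to 171.4 RPKM in PDGFRA-MED ones. Of these 13 markers 2 (Glp2r and Npnt) were called higher in mid than distally, against 0.4% of all genes, and the list median was 0.45. Other cell types were checked by 8 marker lists with 77 tested genes, of which none was called in either comparison by limma treat or limma-voom, with 1 and 4 at an unadjusted p under 0.05. The enteric neuron and glia list summed to 612.7 to 946.2 RPKM through a few genes, since 9 or 10 of its 12 genes had a mean under 1 RPKM in each region. The other sums varied between libraries. Smooth muscle markers reached 716.5 RPKM in mid replicate 3 and 658.7 RPKM in distal replicate 1 against 205.7 to 365.8 RPKM in the other 7 libraries. Blood markers, mainly globins, were at 440.3 to 617.9 RPKM in proximal, 88.34 to 387.7 RPKM in mid and 120.5 to 220.7 RPKM in distal libraries. Epithelial markers were at 125.5 RPKM in proximal replicate 1, 59.89 RPKM in mid replicate 1 and 4.249 to 8.377 RPKM in distal libraries. All 15 tested epithelial markers had a higher mid than distal mean of log2 levels, against 54.6% of all genes, with a median of 0.48. Against proximal cells 6 of the 15 were higher in mid. The part of these other cell types in the changes above was not tested.

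**Figure D5:**
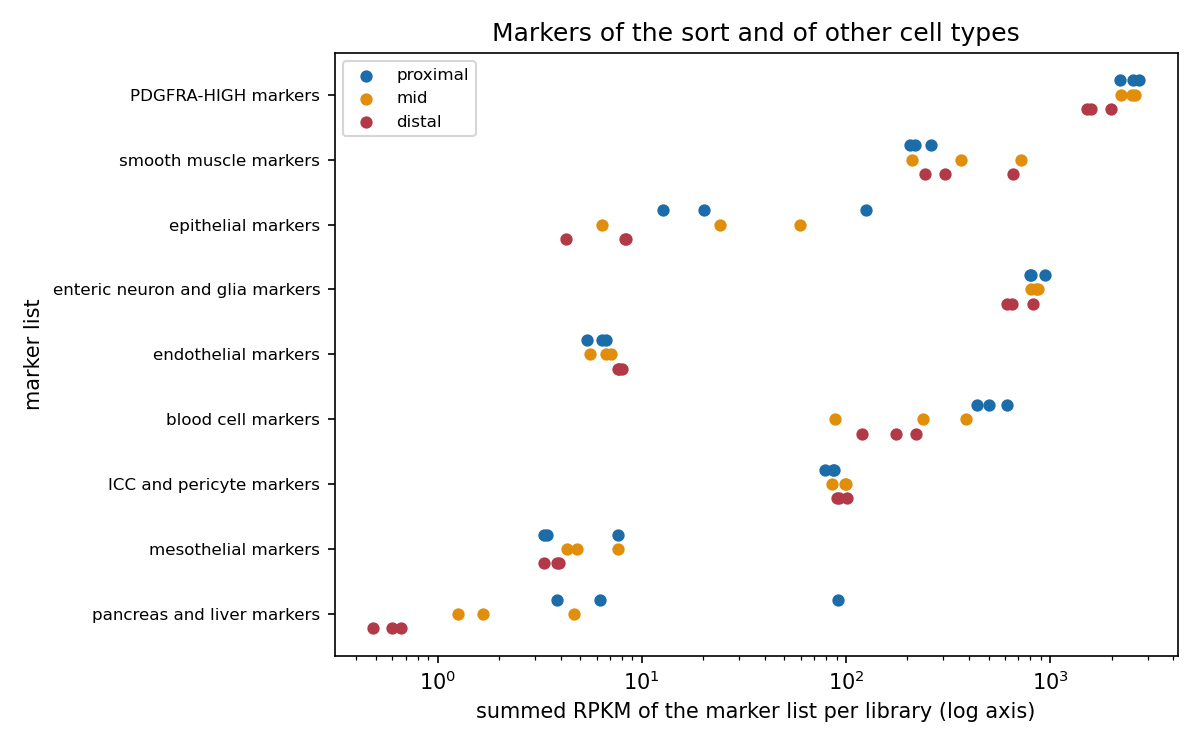
Summed RPKM of each marker list per PDGFRA-HIGH library (log axis), 3 points per region. The PDGFRA-HIGH markers lie between 1517 and 2731 RPKM, and smooth muscle, epithelial, blood and pancreas and liver markers spread most between libraries of a region.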

How the data were processed

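RNA-seq tables of sorted cells were used. As the labels and the methods of the study state, the authors aligned reads to mm10 with Rsubread, counted them over RefSeq genes with featureCounts by strand (multi-mapping reads kept where 1 location is annotated), filtered low counts, scaled the libraries and computed the deposited RPKM with edgeR. The table used held 27 libraries in 9 groups (EpCAM, PDGFRA-HIGH and PDGFRA-MED in 3 regions) and 16901 genes. The files paired 16582 gene IDs with a symbol, and 319 had none. The 3 other tables of the series were not used here. From the RPKM steps, whole reads were recovered for 100% of the values (tolerance 0.01), giving 20091905 to 26658039 reads in each of the 9 PDGFRA-HIGH libraries, where 1 RPKM for 1 kb stands for 18.88 to 25.05 reads. Pairs of libraries within a group differed beyond sampling noise (chi-square per degree of freedom 16.26 to 42.47, Spearman's rho 0.9889 to 0.9935), so each was counted as a sample.

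The filter kept 14732 genes that reached an RPKM of 1 in 3 or more libraries. Values of log2(RPKM + 0.5) were fitted in limma 3.58.1 (R 4.3.3) and tested by treat (minimum log2 change 0.5), a mean-variance trend, robust moderation and Benjamini-Hochberg adjustment at 0.05. All 27 libraries shared an estimate of the spread. Following the study's model, in which the number marks the mother, the replicate number entered as a block. Deviations of same-numbered PDGFRA-HIGH libraries from their group means correlated at a mean r of 0.244 (7 of 9 pairs over 0.1, lowest −0.021), those of other pairs at −0.124 (0 of 18 over 0.1). Differences between steps and between sorts were tested with limma without a minimum change. Code was tested on simulated data first.

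The genes described were Hoxc8 and Hoxa4, up to 12 called genes per direction and class with the largest changes and the same sign in 3 of 3 pairs, called members of the gene lists, 5 genes per direction for each interaction, and the 5 genes most like each marker. The genes and lists were chosen with earlier results of these data known. Promoters came from RefSeq (GRCm38.p6). Alternatives were pseudocounts of 0.1 and 1, other filters, the 9 libraries alone, no block, quantile normalization, limma-voom on the recovered reads, no minimum change, and omission of each library in turn.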

Additional observations from a re-analysis of the deposited data

Results flagged for a closer look

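The following genes were called in a step in PDGFRA-HIGH cells and had a change there that differed from the change in PDGFRA-MED cells by an interaction test (limma, adjusted p under 0.05). Values are the PDGFRA-HIGH minus the PDGFRA-MED change on the log2(RPKM + 0.5) scale. Where a gene is near 0 in PDGFRA-MED cells, such a difference cannot tell a different regional change from low expression. Adra2c, for example, had means of 0.0123, 0.00461 and 0.00447 RPKM in PDGFRA-MED cells from proximal to distal. From proximal to mid, the PDGFRA-HIGH change exceeded the PDGFRA-MED change by 2.54 for Ndnf, 2.39 for Sema3c, 2.25 for Cpm, 2.22 for Ism1 and 1.84 for Cd81. In the same step the difference was −1.25 for Esrrb, −1.22 for Cxcl5, −1.01 for Nmur2, −0.84 for Tshz1 and −0.77 for Casq2.

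For mid minus distal, the difference between the sorts was 2.61 for Col18a1, 2.41 for Col4a4, 2.29 for Col4a3, 1.64 for Adra2c and 1.44 for Gsg1l2. It was −2.64 for Ebf1, −1.50 for Cd81, −1.35 for Cldn1, −1.18 for Enpp1 and −0.93 for Trpm5. Of these 20 differences, those of Casq2 and Nmur2 lost their call most often, under 8 and 5 of the 18 alternatives. With limma-voom on the recovered reads the calls of Adra2c, Col4a3, Col4a4, Cxcl5 and Esrrb were also lost (adjusted p 0.481, 0.0714, 0.0676, 0.34 and 0.149).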

How the results depend on the processing

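Of the alternatives, none turned the direction of a called gene, and 21 of the 43 genes called against proximal and 32 of the 73 called against distal cells were called under all 18. Without a minimum fold change the counts rose to 302 higher and 176 lower against proximal, 779 higher and 714 lower against distal, 17 peaks, 7 dips, 48 late and 188 at both steps. With limma-voom 19 genes were lower than proximal, 23 lower than distal, 1 peaked, 47 were late and 14 moved at both steps. In the fit on the 9 PDGFRA-HIGH libraries 1 gene peaked and 44 were late. A pseudocount of 0.1 left 11 early and 11 late genes, and 97 and 85 genes that differed between the sorts in step 1 and step 2. In the fit on the PDGFRA libraries only, 128 genes differed between the sorts in step 2. Without the replicate block, 32 genes were higher and 8 lower than proximal, 49 higher and 13 lower than distal, 19 early, 21 late, 6 at both steps and 0 peaks or dips, while 110 and 151 differed between the sorts in the 2 steps. The share of calls that were higher in mid moved from 79.1% to 69% (9 libraries), 68.9% (limma-voom) and 63.2% (no minimum) against proximal, and from 80.8% to 71.6% (without mid replicate 1) and 52.2% (no minimum) against distal. With each library left out in turn, 25 to 37 genes were higher and 5 to 10 lower than proximal, 34 to 66 higher and 9 to 21 lower than distal, 0 to 1 peaked, 0 dipped, 11 to 20 were early, 12 to 40 late, 3 to 7 at both steps, and 102 to 183 and 95 to 355 differed between the sorts. The causes of these moves were not tested. Genes under about 1 RPKM rest on few reads, so their fold changes depend on the pseudocount.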
